A study of Homo sapiens with 6 samples.

Results

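BAX and 9 other genes of the BCL2 family were followed in RNA from HEK293 cells after Cas9 disruption of a zinc finger gene. The 10 genes are BAX and BAK1, the pro-survival genes BCL2, BCL2L1 and MCL1, and the BH3-only genes BID, BAD, BCL2L11, BBC3 and PMAIP1. They were taken as a named list from the 57773 genes of the deposited count matrix, of which 22010 had enough reads to be tested. All 10 passed that filter. BAX was put in the list for its higher count in the cells edited at ZNF507, so its values there were selected on these same libraries and are described without a test. The other 9 were listed as members of the family and were tested.

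BCL2 family proteins decide whether the outer mitochondrial membrane stays intact. BAX and BAK1 are the effectors that form pores in it and release cytochrome c, the pro-survival proteins BCL2, BCL-XL (the product of BCL2L1) and MCL1 hold them back, and the BH3-only proteins relay stress signals by engaging either side. HEK293 is a human embryonic kidney line transformed with adenovirus DNA, and it carries the viral E1A and E1B genes, one of whose products is a BCL2-like inhibitor of BAX and BAK. Viral transcripts were not analysed here.

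The study asked how loss of the zinc finger proteins ZNF146 and ZNF507 affects RNA levels in these cells, of LINE-1 elements and of the cells' own genes. All 3 groups received PX459, a plasmid with Cas9 and puromycin resistance: EV carried no guide, sgZNF146 carried 4 guides against ZNF146 and sgZNF507 carried 4 guides against ZNF507. Cells were selected in puromycin for 36 h and harvested 2 weeks after transfection, with 2 libraries per group that were labelled biological duplicates. No cloning step was described, so each library is bulk RNA of a transfected population, the share of edited cells in it was not analysed here, and more BAX RNA per cell cannot be told apart from more cells with a high level.

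Library totals ranged from 22724439 to 28524025 counts. The ZNF507 level was 72.0 and 75.5 CPM in EV (CPM, the count scaled to library size with edgeR's TMM factors) and 47.2 and 48.7 CPM in sgZNF507, a log2 fold change of -0.62 (SE 0.07, edgeR adjusted p = 0.00195). ZNF146 was at 115 and 105 CPM in EV and at 99.2 and 103 CPM in sgZNF146, a log2 fold change of -0.13 (SE 0.08, edgeR adjusted p = 1.00), so its RNA gives no check of the sgZNF146 label. In sgZNF507 ZNF146 was at 88.4 and 101 CPM, a log2 fold change of -0.21 against EV (SE 0.08) that did not pass. The study checked both disruptions by western blot and by insertions and deletions in RNA reads, and neither was analysed here. Of the markers, NEFM, a neuronal gene that HEK293 cells express, averaged 72.0 CPM and the renal gene PAX2 averaged 6.15 CPM. The blood marker PTPRC had 1 to 5 counts per library, the liver marker ALB 1 to 6 counts and the fibroblast collagen COL3A1 143 to 247 counts. COL3A1 averaged 7.33 CPM, above PAX2, which had 139 to 191 counts. The part of COL3A1 in any result below was not tested.

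The BAX gene (ENSG00000087088) lies at chr19:49458072-49465055 on the plus strand of GRCh37, and no other annotated gene overlaps it. The 190 bases before the first annotated BAX start are shown because they hold repeats of CACGTG, the palindromic E-box read by basic helix-loop-helix factors, which are in capitals. They are RefSeq sequence at chr19:48954625-48954814 of GRCh38.p14, and the whole promoter window matched GRCh37 at 1 place only, where these bases lie at chr19:49457882-49458071. The motif was chosen after the sequence was seen.
BAX upstream: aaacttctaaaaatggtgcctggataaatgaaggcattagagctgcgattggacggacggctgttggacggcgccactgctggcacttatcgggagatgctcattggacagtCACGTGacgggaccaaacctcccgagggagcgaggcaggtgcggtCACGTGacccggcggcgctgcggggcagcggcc
BAX E-box 3: gcggggcggcCACGTGaaggacgcac
BAX E-box 4: gcggggctctCACGTGacccgggcgc

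The RefSeq start lies 60 bases downstream of the first GENCODE start. Counted from it, the first bases of the 4 E-boxes stand 138, 93, 45 and 14 bases upstream. The promoter windows compared here run from 250 bases before to 50 bases after a RefSeq start, with the first one listed taken for each gene. Of 27305 such windows of 300 bases, 2030 (7.43%) hold at least 1 CACGTG, which reads the same on both strands. The BAX window is 1 of 5 (0.0183%) that hold 4 or more, and the highest number in any window is 6. The longer palindrome TCACGTGA overlaps 3 of the 4 BAX E-boxes and is present in 283 of the windows (1.04%). Of the other 9 members, 8 are in the promoter table: BBC3 has 1 E-box, also within TCACGTGA, and the other 7 have none in the first listed window. BID has 5 listed windows, of which 2 further ones hold 1 E-box each, and no other of the 7 has one in any window. MCL1 was not matched. A match says that these letters are present, and binding was not measured in these libraries.

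BAX had more RNA than BAK1, the other effector, in every library, and it was highest in sgZNF507. In EV its 2 libraries held 2198 and 2500 counts, or 88.3 and 90.4 CPM. In sgZNF146 they held 2284 and 2103 counts, or 90.0 and 83.6 CPM. In sgZNF507 they held 2853 and 3288 counts, or 124 and 114 CPM. Both sgZNF507 libraries were above all 4 others, which overlapped each other. The group means were 89.4 ± 1.51 CPM in EV, 86.8 ± 4.53 CPM in sgZNF146 and 119 ± 7.29 CPM in sgZNF507 (SD, n = 2 each).

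The BAX log2 fold change in sgZNF507 was 0.41 (SE 0.07) against EV, or 32.7% more CPM, and this is the value by which BAX was chosen. Against sgZNF146, which shares those sgZNF507 libraries, the log2 fold change was 0.45 (SE 0.07). No p is given for either. In sgZNF507 against EV 40 genes, or 0.182% of those tested, passed an adjusted p of 0.05, and BAX was the 38th of them both by adjusted p and by size of change, where the smallest change was 0.39. With edgeR on all 6 libraries BAX lay close to that threshold. DESeq2 on the same libraries also put it past, and edgeR on the 4 libraries compared did not. Leaving out either EV library, either sgZNF146 library or the first sgZNF507 library gave log2 fold changes of 0.34 to 0.42. At the same time BAX was an abundant gene: 2294 tested genes had a mean CPM at or above that of BAX, and 7 of these, BAX included, had a log2 fold change at least as high. Over all tested genes 5.29% had a log2 fold change as high or higher, most of them at lower counts. These ranks and shares describe the value by which BAX was chosen and are no test of it.

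In sgZNF146 against EV BAX did not pass the test, with a log2 fold change of -0.04 (SE 0.07, 95% interval -0.19 to 0.11, edgeR adjusted p = 1.00). This comparison shares the EV libraries with the one by which BAX was chosen.

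BAK1, the partner effector, was near the same level in all groups. Its libraries held 55.6 and 51.9 CPM in EV, 56.2 and 50.4 CPM in sgZNF146, and 58.6 and 53.7 CPM in sgZNF507. The groups overlapped in each comparison. Against EV the log2 fold change was 0.06 in sgZNF507 (95% interval -0.12 to 0.24) and -0.01 in sgZNF146 (95% interval -0.19 to 0.17). The BAX to BAK1 ratio, taken per kilobase of annotated exon, was 1.36 and 1.49 in EV, 1.37 and 1.42 in sgZNF146, and 1.81 and 1.81 in sgZNF507. This ratio takes its shift from the BAX values that chose the gene.

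**Figure D1:**
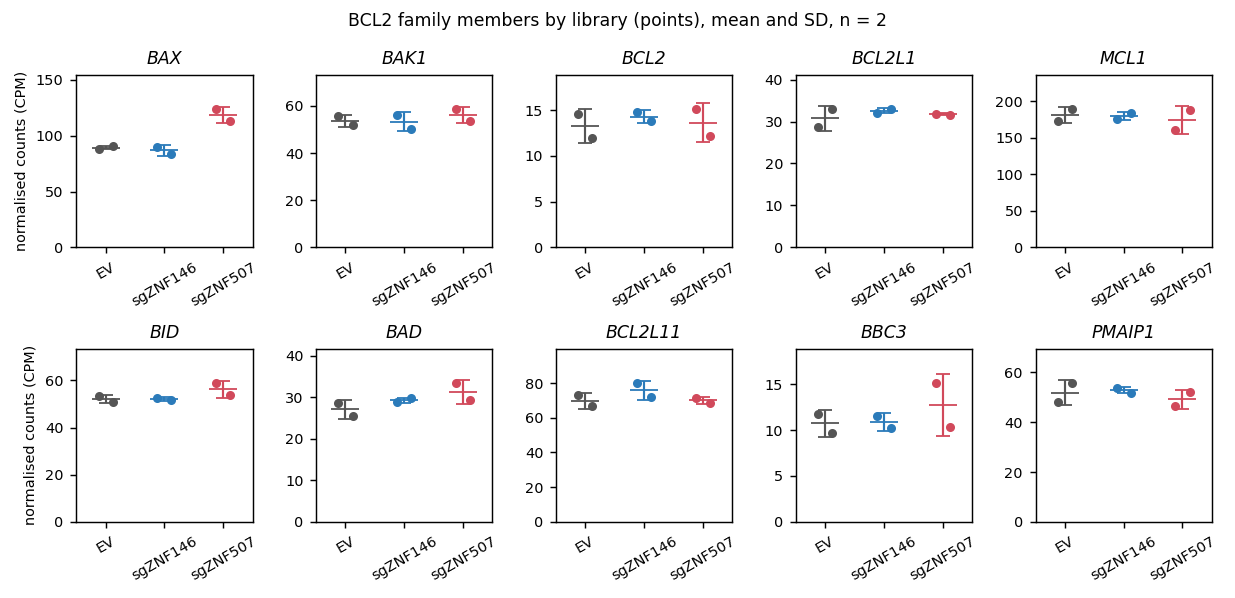
Level of each member in every library, in TMM-scaled CPM, with each group in its own colour, a point for each library, a dash for the group mean and whiskers of 1 SD (n = 2), and each panel has its own axis from 0. The BAX points of sgZNF507, at 124 and 114 CPM, stand above the other 4, which lie between 83.6 and 90.4 CPM, and BID is the only other member with both sgZNF507 libraries above all 4 others, by a far smaller margin.

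Among the pro-survival genes none passed the test in any comparison. MCL1, whose short-lived protein protects cells from BAK1 in particular, was the most abundant member by CPM, with 173 and 189 CPM in EV, 176 and 184 CPM in sgZNF146, and 161 and 188 CPM in sgZNF507. BCL2L1, which is spliced into the pro-survival BCL-XL and a shorter pro-death form that gene counts do not separate, held 28.6 and 32.9 CPM in EV, 32.1 and 33.0 CPM in sgZNF146, and 31.9 and 31.5 CPM in sgZNF507. BCL2, the founding member, was low, with 329 to 375 counts per library and 11.9 to 15.1 CPM. For all 3 genes the sgZNF507 libraries overlapped those of EV.

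Against EV, the log2 fold changes in sgZNF507 were -0.06 for MCL1 (95% interval -0.23 to 0.11), 0.04 for BCL2L1 (95% interval -0.16 to 0.24) and 0.04 for BCL2 (95% interval -0.26 to 0.34). In sgZNF146 they were -0.01, 0.08 and 0.11. BCL2L1 was lower in both sgZNF507 libraries than in both sgZNF146 libraries, by a log2 fold change of -0.04 that did not pass (95% interval -0.23 to 0.16).

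The BH3-only genes did not pass the test either. BAD, which binds BCL2 and BCL-XL under the control of phosphorylation, had the 95% interval nearest to leaving out 0. Its libraries held 28.6 and 25.5 CPM in EV, 28.8 and 29.8 CPM in sgZNF146, and 33.4 and 29.3 CPM in sgZNF507. Both edited groups stood above EV without overlap and overlapped each other. The log2 fold change against EV was 0.21 in sgZNF507 (95% interval -0.0045 to 0.42, edgeR adjusted p = 1.00) and 0.11 in sgZNF146 (95% interval -0.10 to 0.33, edgeR adjusted p = 1.00). BAD shares exonic bases with GPR137 on the opposite strand, which averaged 60.9 CPM against 29.2 CPM for BAD, and no source used here gives the strand setting of the counting, so reads of GPR137 in the BAD count cannot be told apart.

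BID, which is cut by caspase-8 and carries death receptor signals to mitochondria, held 53.5 and 50.8 CPM in EV, 52.6 and 51.6 CPM in sgZNF146, and 58.7 and 53.6 CPM in sgZNF507. Both sgZNF507 libraries were above the other 4, the second by less than 1 CPM. The log2 fold change was 0.11 against EV (95% interval -0.06 to 0.27) and 0.11 against sgZNF146 (95% interval -0.06 to 0.27), neither past the threshold.

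BCL2L11 encodes BIM, a broad activator that binds every pro-survival member. It held 72.9 and 66.6 CPM in EV, 79.9 and 72.1 CPM in sgZNF146, and 71.5 and 68.7 CPM in sgZNF507. The sgZNF507 libraries lay within the EV range and below both sgZNF146 libraries. The log2 fold change in sgZNF507 was 0.0070 against EV (95% interval -0.16 to 0.17) and -0.12 against sgZNF146 (95% interval -0.28 to 0.05). MIR4435-2HG, a long non-coding RNA of the opposite strand with exons that overlap those of BCL2L11, averaged 15.2 CPM against 71.9 CPM for BCL2L11.

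BBC3 and PMAIP1 encode PUMA and NOXA, which are made in response to DNA damage and other stresses. BBC3 was the lowest BH3-only gene by CPM, with 11.8 and 9.69 CPM in EV, 11.5 and 10.2 CPM in sgZNF146, and 15.1 and 10.3 CPM in sgZNF507. Only the first sgZNF507 library stood above the rest, and the log2 fold change against EV was 0.23 (95% interval -0.14 to 0.61), the widest interval of the 10 genes. PMAIP1 held 48.3 and 55.6 CPM in EV, 53.7 and 52.0 CPM in sgZNF146, and 46.5 and 52.0 CPM in sgZNF507. Its log2 fold change against EV was -0.08 in sgZNF507 (95% interval -0.27 to 0.12).

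Counted together, 0 of the 10 members passed in sgZNF146 against EV, where 0.0% of all tested genes did, and 0 of the 9 other than BAX passed in sgZNF507 against EV or in sgZNF507 against sgZNF146, where 0.182% and 0.173% of all tested genes did. At an unadjusted p under 0.05, none of these members was past the threshold in the same comparisons with edgeR or with DESeq2. Over all tested genes that share was 2.43%, 3.39% and 4.03% with edgeR in sgZNF146 against EV, sgZNF507 against EV and sgZNF507 against sgZNF146, so 0 of 9 or 10 is near the background. Groups did not overlap for 1 of the 9 in sgZNF146 against EV (28.6% of all tested genes), for 2 of the 9 in sgZNF507 against EV (29.3%) and for 3 of the 9 in sgZNF507 against sgZNF146 (32.1%). The member shares were near or below those of all genes. The median log2 fold changes of the 9 were 0.02, 0.04 and -0.04, beside medians of -0.0013, -0.0032 and -0.0040 over all tested genes.

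**Figure D2:**
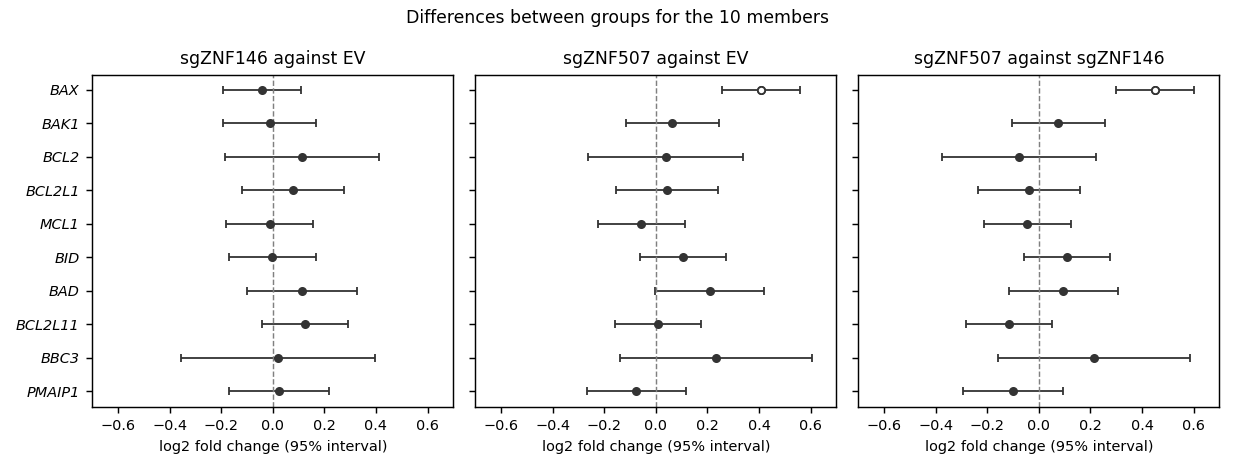
Log2 fold change of each member in the 3 comparisons, with lines for the 95% interval and a dashed line at 0. The open BAX marker in the sgZNF507 panels stands for a value that chose the gene. The intervals of the other 9 members all reach across 0 in each panel, and BAX in sgZNF146 against EV does too, at -0.04.

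Between genes, levels can be compared only per length, so CPM was divided by the kilobases of exon annotated for each gene. On this scale BAX was the highest member, at 38.0 ± 6.30 CPM per kb (SD over the 6 libraries) with a range of 32.3 to 47.9, and it did not overlap the next gene in any library, with or without sgZNF507. MCL1 followed at 28.7 ± 1.75, then BAK1 at 24.6 ± 1.36 and PMAIP1 at 23.5 ± 1.55 CPM per kb. The MCL1 and BAK1 ranges overlapped, as did those of BAK1 and PMAIP1.

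Next came BAD at 17.1 ± 1.47 CPM per kb, then BID at 12.1 ± 0.63 and BCL2L11 at 10.7 ± 0.67 CPM per kb, the last pair overlapping. BCL2L1 at 7.55 ± 0.38, BBC3 at 3.59 ± 0.62 and BCL2 at 1.09 ± 0.11 CPM per kb closed the order, each apart from its neighbours. The highest library was 1.48 times the lowest for BAX and 1.56 times for BBC3, and 1.15 to 1.31 times for the other 8. Exon lengths here include bases that are not in every transcript, as in BCL2 with its 12612 annotated exon bases, which lowers the value per kb of genes with long alternative ends.

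**Figure D3:**
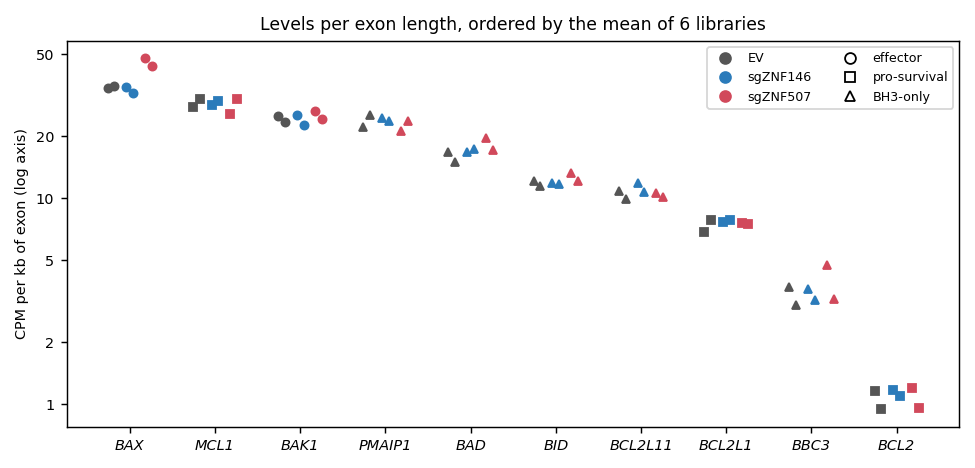
The 10 members ordered by mean level per length, in CPM per kilobase of annotated exon on a log axis, with a point for each of the 6 libraries coloured by group and shaped by role (circle for effectors, square for pro-survival, triangle for BH3-only). BAX leads at 38.0 CPM per kb, MCL1, BAK1 and PMAIP1 form an overlapping run between 28.7 and 23.5, and BCL2 is lowest at 1.09.

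Summed per kilobase by role, the effectors stood at 59.2 and 58.4 CPM per kb in EV, 60.2 and 55.1 in sgZNF146, and 74.4 and 68.2 in sgZNF507. The pro-survival genes summed to 35.8 and 39.2 CPM per kb in EV, 37.1 and 38.5 in sgZNF146, and 34.6 and 38.7 in sgZNF507. The BH3-only genes summed to 65.5 and 64.8, 68.8 and 66.8, and 69.5 and 66.5 CPM per kb in the same order. The effector sum of sgZNF507 was above both other groups without overlap, which follows from the BAX values by which the gene was selected. The BH3-only sums of both edited groups were above EV without overlap and overlapped each other, and the pro-survival sums overlapped throughout. Of the BH3-only genes, only BAD stood above EV without overlap in both edited groups, and its count may hold reads of GPR137. Among all tested genes, groups did not overlap for 28.6% in sgZNF146 against EV and 29.3% in sgZNF507 against EV.

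The share of BAX in the RNA of the 10 genes per kilobase was 21.3% and 21.5% in EV, 20.9% and 20.2% in sgZNF146, and 26.8% and 25.3% in sgZNF507. The ratio of effectors to pro-survival genes was 1.65 and 1.49 in EV, 1.62 and 1.43 in sgZNF146, and 2.15 and 1.76 in sgZNF507. The first sgZNF507 library was the more extreme in this ratio, with the lowest MCL1 level and the highest BAX level of the 6. These ratios are of RNA, and protein was not analysed here.

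Around the members, 72 further genes in 6 lists covered the rest of the pathway, and 64 of them were tested. With edgeR, 0 of the 64 passed in any comparison. At an unadjusted p under 0.05 there was 1 in sgZNF146 against EV (DFFB, the nuclease that cuts DNA in dying cells, log2 fold change -0.24), 0 in sgZNF507 against EV and 1 in sgZNF507 against sgZNF146 (BMF, log2 fold change 0.41), and DESeq2 gave the same counts of 1, 0 and 1. As shares of the 64 these are 1.56%, 0.0% and 1.56%, below the 2.43%, 3.39% and 4.03% of all tested genes. Without overlap in sgZNF507 against EV, 6 of the 64 were higher and 10 lower, beside 3084 and 3373 of all 22010. In sgZNF146 against EV 10 were higher and 10 lower, beside 3077 and 3212. The 8 genes left out by the filter were BOK, BCL2A1, BCL2L10, BIRC7, FASLG, TNFSF10, GDF15 and EDA2R, with 0 to 10 counts in each library. BOK is the remaining pore-forming relative of BAX, and it had at most 2 counts in a library.

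In the list of other BCL2 relatives, 10 of 13 genes were tested and their log2 fold changes in sgZNF507 against EV had a median of 0.05. BMF, a BH3-only gene, averaged 13.8 CPM in sgZNF507 and 11.7 CPM in EV, with its sgZNF507 libraries far apart at 16.6 and 11.0 CPM (log2 fold change 0.23, SE 0.17). HRK, another BH3-only gene, averaged 10.4 against 9.03 CPM (log2 fold change 0.21, SE 0.20). Neither passed, and for both genes the groups overlapped. In sgZNF146 against EV BMF stood at -0.19 and HRK at 0.16. In sgZNF507 against EV, 6 of the 10 tested had a value above 0 and 4 below. Without overlap 2 were higher and 1 lower. The lower gene was BCL2L2, at -0.18 (SE 0.09), with both sgZNF507 libraries below both EV libraries, and it did not pass.

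Among the 15 genes of cytochrome c release, the apoptosome and the caspases, the median was -0.02. APAF1, the scaffold that cytochrome c assembles, had a log2 fold change of 0.12 (SE 0.09), and CASP8, the initiator of the receptor pathway, of -0.13 (SE 0.11). In sgZNF146 against EV they stood at 0.16 and -0.07. CASP8 was below EV without overlap in both edited groups, and APAF1 was above EV without overlap in sgZNF146 only. In the inhibitors of apoptosis, which bind or ubiquitinate caspases, all 6 tested genes had a value below 0 in sgZNF507 against EV. So had 11236 of all 22010 tested genes. The median of the 6 was -0.08 and none was past the threshold. Their values ran from -0.02 for BIRC6 to -0.23 for NAIP (SE 0.15), whose sgZNF507 libraries were both below EV, and BIRC2 stood at -0.14 (SE 0.11). In sgZNF507 against sgZNF146, 4 of the 6 were below 0 and 2 above.

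The death receptor list had 8 of 10 genes tested and a median of 0.05. Its receptor TNFRSF10A stood at 0.11 (SE 0.13) and its adaptor TRADD at 0.18 (SE 0.13). Genes that regulate BCL2 proteins or share the outer membrane with them had a median of 0.0023 over 14 genes, and the furthest were the mitofusin MFN1 at -0.14 (SE 0.08) and the BAX-binding SH3GLB1 at -0.09 (SE 0.07). In sgZNF507 none of these 4 overlapped EV, the first pair higher and the other pair lower. In sgZNF146 against EV they stood at 0.20, 0.17, -0.10 and -0.0032, and only SH3GLB1 overlapped EV. None of the 4 passed the test.

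In the remaining list 11 of 13 genes were tested, 7 with a value above 0 and 4 below, with a median of 0.04 and none past the threshold. The furthest were CDKN1A and ZMAT3. CDKN1A, which encodes the p21 cell cycle inhibitor, averaged 15.7 CPM in sgZNF507 and 13.8 CPM in EV, a log2 fold change of 0.19 (SE 0.14) with overlapping groups. ZMAT3, which encodes an RNA-binding protein, stood at 0.17 (SE 0.11), with both sgZNF507 libraries above both EV libraries. On the other side RPS27L, at -0.16 (SE 0.12), and PERP, at -0.14 (SE 0.07), had both sgZNF507 libraries below both EV libraries. Their sgZNF146 libraries were also below EV. RPS27L held 11.9 and 11.0 CPM there beside 13.0 and 12.4 in EV, and PERP 56.0 and 58.3 beside 62.3 and 62.9. In sgZNF146 against EV CDKN1A stood at 0.23 with overlapping groups and ZMAT3 at 0.03.

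BAX lies on 19q, 16.6 Mb distal to ZNF507 and 12.7 Mb distal to ZNF146 on the same arm, so its neighbours were read for a change along the chromosome. Within 1 Mb of BAX, 44 other genes had a mean of at least 10 CPM. Their log2 fold changes in sgZNF507 against EV ran from -0.20 to 0.15 with a median of -0.02, beside 0.41 for BAX, the value by which it was chosen. Without the minimum of 10 CPM, the 87 other tested genes in the window ran from -0.80 to 0.57, a range that includes BAX. The nearest of the 44 on either side, NUCB1 before BAX and FTL (ferritin light chain) after it, stood at 0.03 and -0.16. In sgZNF146 against EV, 42 of these 44 genes had a value below 0, with a median of -0.06 and a range of -0.16 to 0.01. Over the 784 other tested genes of 19q distal to ZNF507 the medians were -0.03 in sgZNF507 and -0.05 in sgZNF146, and edgeR called 0 in either, with 22 (2.81%) in each at an unadjusted p under 0.05, beside 3.39% and 2.43% of all tested genes. Values below 0 were more common: 472 of the 784 in sgZNF507 and 522 in sgZNF146, beside 11236 and 11112 of all 22010. Lower without overlap were 135 and 215 of the 784, beside 3373 and 3212 of all 22010. The cause of this small shift was not tested.

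**Figure D4:**
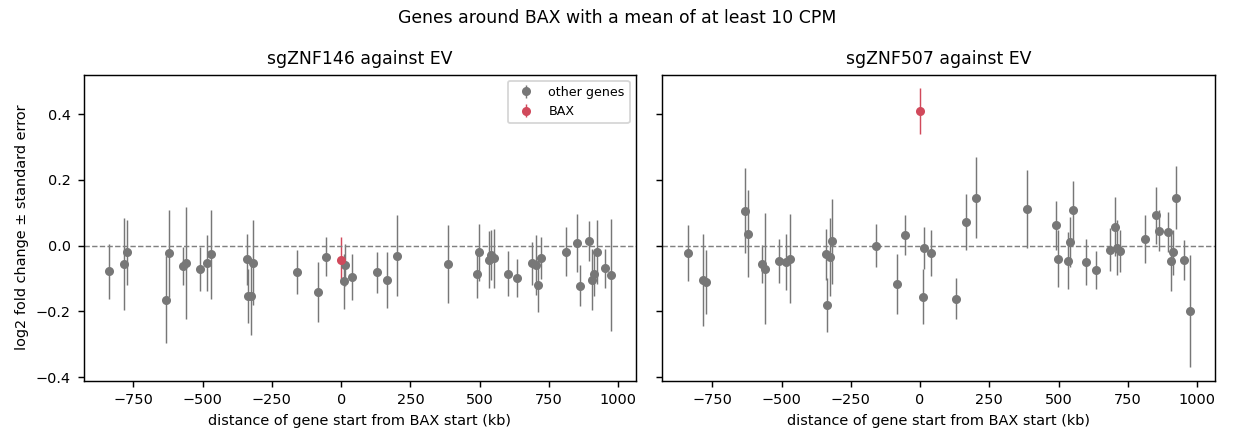
Log2 fold change of genes by distance in kilobases from BAX on chromosome 19, in sgZNF507 against EV and in sgZNF146 against EV, for the 44 genes within 1 Mb with a mean of at least 10 CPM (grey) and for BAX (red), with lines of 1 standard error. In sgZNF507 against EV BAX is at 0.41, the value by which it was chosen, and the other genes shown lie between -0.20 and 0.15.

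The genes whose levels followed BAX most closely were found by the root mean square (RMS) difference of log2 CPM, centred on each gene's mean over the 6 libraries, among 10646 genes with a mean of at least 10 CPM. The median gene differed by 0.223 and a flat line by 0.209. SMCR8, a partner of C9orf72 in autophagy, was nearest at 0.038, with 94.1 and 92.7 CPM in EV, 94.0 and 91.9 CPM in sgZNF146, and 130 and 125 CPM in sgZNF507. The lncRNA RP1-178F10.3 was next at 0.039, and since it overlaps SMCR8 on the same strand their reads may not be independent.

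After these came TRAPPC2L, a vesicle tethering subunit, at 0.051, and CTSA, the lysosomal protective protein cathepsin A, at 0.052. GET3, the ATPase that delivers tail-anchored proteins for insertion into membranes, followed at 0.056. CTSA held 73.4 and 76.6 CPM in EV and 113 and 96.4 CPM in sgZNF507. All 5 share the 6 libraries and their depth with BAX. They were picked for likeness to a profile that is high in both sgZNF507 libraries, so their own higher level there follows from the choice. No other member was among the 5.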

How the data were processed

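RNA was sequenced from 6 libraries of HEK293 cells, 2 per group, grouped by the treatment in their labels. The authors clipped reads, removed ribosomal reads, mapped the rest to hg19 (GRCh37) with TopHat2 and counted them per Ensembl gene with featureCounts. The deposited values are raw counts per gene. PCR duplicates count as separate reads. Symbols and exon lengths came from GENCODE lifted to GRCh37, which matched 96.1% of the 57773 identifiers, and promoters from RefSeq (GRCh38.p14).

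Counts were tested with edgeR 4.0.16 (R 4.3.3): filterByExpr, TMM and glmQLFTest with all 6 libraries in one fit without covariates, and Benjamini-Hochberg adjustment over all 22010 genes with a threshold of 0.05. Standard errors and 95% intervals derive from the F statistic. P-values set group differences against the spread between labelled duplicates, with each gene's estimate drawn toward that of other genes. DESeq2 1.42.0 was an alternative. Figures used matplotlib 3.10.9.

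The members and lists were chosen with earlier results of these data known. Named were all members, from each list the 2 genes with the largest change in sgZNF507 against EV at a mean of at least 1 CPM, the 5 genes most like BAX, and both targeted genes. BCL2L2, BIRC6, DFFB, RPS27L, PERP, the genes below the filter and the genes around BAX were named after their values were seen. The markers NEFL and PECAM1 were not used here. One listed gene is not reported here.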

Additional observations from a re-analysis of the deposited data

How the results depend on the processing

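The 15 alternatives were 2 other scalings, dropping the filter, a stricter filter (a minimum of 10 counts per library), DESeq2, fits on the 4 libraries compared, the replicate block and each library left out. Under each of them 0 of the tested members (BAX aside in the sgZNF507 comparisons) and 0 of the pathway genes passed. Of 405 values of the 9 members other than BAX, 28 changed sign, none of them past the threshold in either setting. The BAX log2 fold change ranged from 0.34 to 0.48 in sgZNF507 against EV, where it was past the threshold by which it was chosen in 9 of the 15 (not with edgeR on the 4 libraries compared, nor without either EV library, either sgZNF146 library or sgZNF507 replicate 1, all fits with fewer samples), from 0.39 to 0.52 against sgZNF146 and from -0.10 to 0.0089 in sgZNF146 against EV.

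The number of genes passing moved more. In sgZNF507 against EV it was 40, then 101 without a filter, 121 with the replicate block in edgeR, 63 with the replicate block in DESeq2, and 12, 22 and 25 without EV replicate 1, without EV replicate 2 and without sgZNF507 replicate 1. In sgZNF507 against sgZNF146 it was 38, then 112, 196 and 75 under the first 3 of these, and 13 and 23 without sgZNF146 replicate 1 and replicate 2. In sgZNF146 against EV it was 0, then 19 without a filter, 33 with the replicate block in edgeR, 3 with either tool on the 4 libraries compared, and 0 to 3 with a library left out. Same-numbered libraries deviated together weakly (r = 0.191 to 0.242 across genes, 2 pairs), but the labels name no batch that a number stands for and 2 pairs are too few to settle a pairing. The cause of these moves was not tested. Depth limits BBC3 and BCL2 most, at 257 to 375 counts per library.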

Other observations

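CACGTG was also counted in the promoter windows of the genes that passed the test in sgZNF507 against EV, a set chosen by these same libraries, so the counts are a description without a test. Of the 25 genes that were higher, 21 had a window in the RefSeq table and 15 of these (71.4%) held at least 1 E-box. Without BAX it was 14 of 20 (70.0%). Of the genes that were lower, 3 of 5 with a window held one. Among all tested genes with a window the share was 1272 of 13158 (9.67%), and among those with a mean of at least 10 CPM 908 of 8519 (10.7%). LAMP1, a lysosomal membrane protein, held 6 E-boxes, BAX 4 and IGF2R, the receptor that sorts enzymes to lysosomes, 3. Of the 5 genes most like BAX, 4 had a window and 2 of these (50.0%) held an E-box, CTSA among them with 2. SMCR8, the nearest to BAX, and GET3 held 0. The first window listed for a gene was used, and genes with several starts may have others.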
